A study of Mus musculus with 6 samples.

Results

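Alb, Rbp4, Apoe, Apob and Hnf4a are 5 genes by which a hepatocyte is usually known: a transcription factor, 2 secreted carrier proteins and 2 apolipoproteins. They were taken from the 22564 protein-coding genes of an RNA sequencing table by symbol, and they were selected on their FPKM, because they were listed above 0 in libraries in which most other hepatocyte genes were listed at 0. Their detection is therefore how they were chosen, and it is given here as a description. The question was how far above 0 they lay, how evenly over the libraries, and how they compared between the groups and with Actb, the cytoplasmic actin gene, in the same library.

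The tunicamycin group held 3 libraries. Their labels give the tissue as liver, the strain as C57BL/6, the sex as male and the age as 10 weeks, and the mice had received tunicamycin into the peritoneum at 0.2 mg/kg every day for 14 days. The control group held 3 libraries labelled as liver of mice of the same strain, sex and age, and no source used here says what, if anything, those mice were injected with. Tunicamycin blocks the first step of N-linked glycosylation, so that glycoproteins fold poorly in the endoplasmic reticulum (ER). The labels name no genetic change in either group. The labels do not say that each library came from its own mouse, so the p-values rest on spread between these libraries, which may be partly technical. For limma that spread was taken over genes of like level and not from each gene itself.

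The hepatocyte makes most proteins of the blood plasma and releases them through the ER and the Golgi. Albumin, encoded by Alb, is the most abundant of them and carries fatty acids, bilirubin and drugs. Rbp4 encodes the protein that takes retinol from liver stores to other tissues. Apob and Apoe encode apolipoproteins: Apob is the scaffold on which very-low-density lipoproteins are built, and Apoe is the ligand by which lipoprotein remnants are taken up. Hnf4a is a nuclear receptor that binds the promoters of many of these genes. In healthy adult liver Alb and several apolipoprotein genes are among the most abundant of all transcripts.

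Before any comparison, the libraries were set against their label. The values are FPKM, that is, fragments per kilobase of transcript, scaled to the fragments of the library. Of the 22564 genes, 13826 had no value above 0 in any library, and 1124 had one in each of the 6. The other plasma protein genes of a list of 48 were mostly missing, with 40 at 0 in all 6 libraries, and of 36 hepatocyte enzyme genes 31 were at 0 in all 6. The plasma protein and enzyme markers thus go against the label of liver for most of their genes, so the libraries are called here by their labels only. Other hepatocyte transcription factors and fetal liver and progenitor genes were at 0 in all 6 less often. Their shares at 0 were 44.0% and 38.5%, against 61.3% of all genes. The lymphocyte, red cell, kidney tubule and exocrine pancreas lists were at 0 in all 6 libraries. Housekeeping genes were also listed unevenly, with 11 of 20 above 0 in all 6 libraries. Whole reads over all genes numbered 611041, 553793 and 595501 in tunicamycin libraries 1, 2 and 3 and 541022, 577234 and 661145 in control libraries 1, 2 and 3, and control 1 had the fewest genes above 0, at 3046 against 4244 to 5482 in the other libraries.

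All 5 genes were above 0 in every library with the exception of Apoe in tunicamycin 3. Just inside that limit lay Apob in control 1, at 0.0425 FPKM from 1 read, and Apoe in tunicamycin 1, at 1.72 FPKM from 1 read. Of the other plasma protein genes, Fgb, Cp and Itih2 lay just outside it, above 0 in 5 of the 6 libraries as Apoe was, and their values are given below. By mean FPKM over the 6 libraries the order was Alb (183), Rbp4 (149.7), Apoe (97.9), Hnf4a (54.4) and Apob (4.31). On the deposited FPKM no neighbours in that order were separated over all libraries. Alb exceeded Rbp4 in 4 of 6 and Rbp4 exceeded Apoe in 5 of 6. Apoe exceeded Hnf4a in 3 of 6 and Hnf4a exceeded Apob in 5 of 6. With 1 transcript length per gene, as described below, the order held and the Hnf4a mean was 13.4. On that scale Rbp4 exceeded Apoe and Hnf4a exceeded Apob in 6 of 6. Together the 5 genes took 0.128%, 0.194% and 0.136% of the reads in tunicamycin libraries 1, 2 and 3 and 0.256%, 0.306% and 0.219% in control libraries 1, 2 and 3. The tunicamycin libraries were all below the controls in that share and Alb had the most reads of the 5 in every library.

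**Figure D1:**
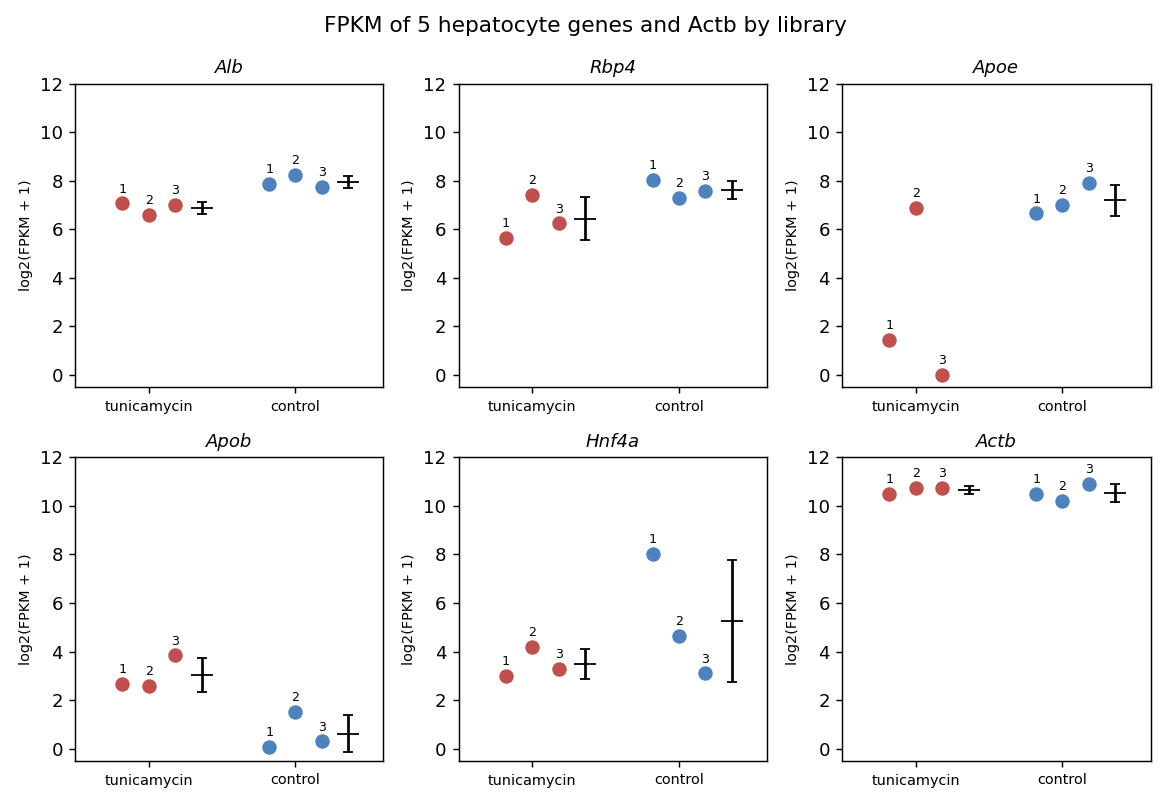
Expression of the 5 hepatocyte genes and of Actb, as log2(FPKM + 1) on the vertical axis, in tunicamycin libraries (left, red) and control libraries (right, blue), each point 1 library with its replicate number and each bar the mean ± SD of 3 libraries. No bar is drawn for Apoe in the tunicamycin group, where 1 library is listed at 0. Alb lies lower and Apob higher in all 3 tunicamycin libraries than in any control, while the Hnf4a bar of the controls rests on control 1 at 262 FPKM.

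Hnf4a, the transcription factor, had 6.99, 17.4 and 8.85 FPKM in tunicamycin libraries 1, 2 and 3 and 262, 23.9 and 7.58 FPKM in control libraries 1, 2 and 3. Control 1 stood far above the other 5 libraries, control 2 lay just above the tunicamycin range and control 3 within it. The means were 11.1 ± 5.56 FPKM after tunicamycin and 97.7 ± 142 FPKM in controls (SD, n = 3 each). The log2 fold change, here and below taken as tunicamycin minus control of log2(FPKM + 1), was -1.76 (SE 1.66), with a limma adjusted p of 0.852. Reads did not show the same outlier: Hnf4a had 57, 132 and 70 whole reads in tunicamycin libraries 1, 2 and 3 and 115, 185 and 62 in control libraries 1, 2 and 3. In reads the groups overlapped, and control 2 was the highest library.

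The difference between FPKM and reads lay in the transcript length that the authors' quantification used, which count and FPKM give back. For Hnf4a that implied length was 4372 to 4380 nt in 5 libraries, close to the 4362 nt of transcript Hnf4a-202, but 407 nt in control 1, close to the 431 nt of Hnf4a-205. At 1 common length the FPKM of control 1 was 15.4. The means were then 11.1 ± 5.55 FPKM after tunicamycin and 15.6 ± 8.17 FPKM in controls (SD, n = 3 each), and the log2 fold change was -0.42 (SE 1.59, limma adjusted p = 0.995). Without control 1 the ratio of means, tunicamycin over control, was 0.704 on the deposited FPKM, against 0.113 with it. Such shifts were common in the table. The ratio of count to FPKM, which follows the effective length (shorter than the transcript by about a fragment), differed over 2-fold between libraries in 503 of 1102 genes above 0 in all 6 libraries with enough reads (45.6%), and over 10-fold in 51 of them (4.63%). For Hnf4a this ratio differed 17.0-fold.

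Hnf4a lies on mouse chromosome 2, plus strand (chr2:163506808-163572910, GRCm38). It is known to have a pair of promoters: adult hepatocytes use mainly the downstream one, and fetal liver and gut epithelium also use the upstream one. Both are printed here because the short transcript Hnf4a-205, to which the length in control 1 is nearest, starts in the upstream promoter, and Hnf4a-202 in the downstream one. Each run is 250 bases before to 50 bases after a RefSeq start in GRCm38.p6, plus strand, and capitals mark matches on either strand to GTTAAT, a core of the site of the factor HNF1, or to CCAAT, a box bound by NF-Y. The upstream run is chr2:163506607-163506906 and the downstream run is chr2:163546905-163547204.
Hnf4a upstream: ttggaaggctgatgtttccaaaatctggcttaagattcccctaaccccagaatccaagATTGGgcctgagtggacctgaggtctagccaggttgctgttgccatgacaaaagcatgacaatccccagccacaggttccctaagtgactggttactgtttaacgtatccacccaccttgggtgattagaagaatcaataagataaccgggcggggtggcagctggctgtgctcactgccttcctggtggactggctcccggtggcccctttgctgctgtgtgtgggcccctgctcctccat
Hnf4a downstream: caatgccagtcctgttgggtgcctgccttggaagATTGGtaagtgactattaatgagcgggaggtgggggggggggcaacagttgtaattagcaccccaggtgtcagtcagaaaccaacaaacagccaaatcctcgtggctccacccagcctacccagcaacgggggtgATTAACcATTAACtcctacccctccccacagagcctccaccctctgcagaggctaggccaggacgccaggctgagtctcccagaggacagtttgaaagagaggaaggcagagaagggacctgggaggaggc
The downstream run held 2 matches to GTTAAT, side by side as ATTAAC, and 1 to CCAAT (as ATTGG), and the upstream run held only 1 to CCAAT (as ATTGG). Matches to GTTAAT occur in 7.10% and to CCAAT in 37.4% of 32851 mouse promoters of the same length. Neither run held CAAAGTCCA, a site of HNF4A itself (0.475% of promoters), or TATAAA, searched for here as the TATA box (13.6%). A match describes letters only. A gene-level table does not show from which promoter reads came, so promoter use in control 1 was not tested.

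**Figure D2:**
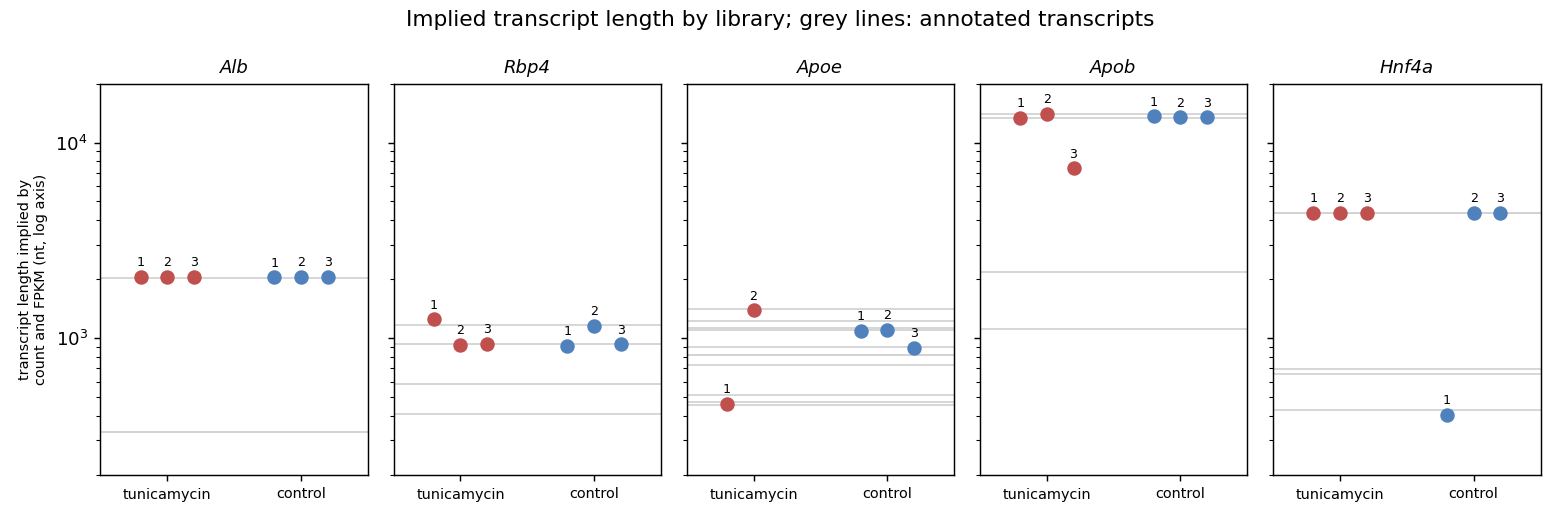
Transcript length in nucleotides (log axis) implied by the deposited count and FPKM of each gene, in tunicamycin libraries (left, red) and control libraries (right, blue), each point 1 library with its replicate number, and grey lines the lengths of annotated transcripts. Alb stays at 2046 to 2052 nt in all 6 libraries, whereas Hnf4a is at 407 nt in control 1 and Apob at 7371 nt in tunicamycin 3.

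Alb had 133, 96.3 and 127 FPKM in tunicamycin libraries 1, 2 and 3 and 231, 300.5 and 213 FPKM in control libraries 1, 2 and 3. Every tunicamycin library was below every control. The means were 119 ± 19.7 FPKM after tunicamycin and 248 ± 46.4 FPKM in controls (SD, n = 3 each), a ratio of 0.479, which stayed between 0.447 and 0.536 when any 1 library was left out. Across all 7696 genes tested, however, the log2 fold change of -1.05 (SE 0.79) did not pass (limma adjusted p = 0.852). That SE came from genes of like level and not from the spread of Alb itself. Alb was the member with the smallest spread within groups, and its reads gave the same order: 486, 326 and 449 after tunicamycin and 764, 1038 and 773 in controls. In edgeR on those reads the log2 fold change was -0.94 (adjusted p = 0.642), and in DESeq2 it was -1.02 (adjusted p = 0.694).

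The implied length of Alb was 2046 to 2052 nt in every library, near the 2034 nt of Alb-201, its 15-exon coding transcript, so its FPKM and its reads carry the same comparison. The level was modest for albumin but not low among the genes listed: Alb ranked 206, 462 and 329 among the genes above 0 in tunicamycin libraries 1, 2 and 3 and 208, 70 and 145 in control libraries 1, 2 and 3. In bulk samples fewer cells of a type and less RNA per cell cannot be told apart, so these values do not say which lay behind a level. Alb lies on chromosome 5, plus strand (chr5:90460897-90476602). Its promoter (RefSeq, GRCm38.p6, plus strand, chr5:90460620-90460919) is printed as that of the most abundant of the 5 genes, with capitals for the same motifs.
Alb: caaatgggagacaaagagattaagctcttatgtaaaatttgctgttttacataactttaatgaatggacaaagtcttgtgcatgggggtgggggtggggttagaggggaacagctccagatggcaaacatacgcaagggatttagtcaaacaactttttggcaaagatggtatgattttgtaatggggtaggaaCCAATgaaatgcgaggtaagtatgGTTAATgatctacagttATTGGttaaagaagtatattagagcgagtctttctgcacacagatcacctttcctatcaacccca
It held 1 match to GTTAAT between 2 to CCAAT, of which the second reads ATTGG, and none to CAAAGTCCA or TATAAA.

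Rbp4, the retinol carrier, had 49.5, 169 and 74.9 FPKM in tunicamycin libraries 1, 2 and 3 and 258, 156 and 191 FPKM in control libraries 1, 2 and 3. The groups overlapped, since tunicamycin 2 was above control 2, while the other 2 tunicamycin libraries were below all controls. The means were 97.8 ± 63.0 FPKM after tunicamycin and 202 ± 52.3 FPKM in controls (SD, n = 3 each). The log2 fold change of -1.19 (SE 0.89) did not pass (limma adjusted p = 0.852), and the ratio of means was 0.485 with all libraries and 0.309 without tunicamycin 2. Its reads numbered 104, 231 and 107 after tunicamycin and 342, 280 and 276 in controls, where the groups did not overlap, but the log2 fold change of -0.92 in edgeR did not pass (adjusted p = 1.00). As with Hnf4a, the length moved between libraries, here between 2 coding transcripts: it was nearest to Rbp4-202 (937 nt) at 911 to 933 nt in 4 libraries, and nearest to Rbp4-201 (1161 nt) at 1247 nt in tunicamycin 1 and 1151 nt in control 2. Rbp4 lies on chromosome 19, minus strand (chr19:38116629-38125281).

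Apoe, the ligand for remnant uptake, was the least even of the 5. It was listed at 1.72, 118 and 0 FPKM in tunicamycin libraries 1, 2 and 3 and at 99.7, 127 and 240.4 FPKM in control libraries 1, 2 and 3, from 1, 259 and 0 reads after tunicamycin and 163, 218 and 332 reads in controls. Tunicamycin 2 lay within the control range in both measures, and the other 2 tunicamycin libraries had next to no reads. The 0 reads in tunicamycin 3 allow a share of up to 0.000504% of that library (3 reads, counting error only). That bound takes reads as independent. Reads per gene clustered at 71.0 in that library, as described below, so the bound can be too tight. The log2 fold change was -4.41 (SE 1.49), with an unadjusted limma p of 0.00305, the rank 32 of 7696, and an adjusted p of 0.716. The SE behind that p came from genes of like level and not from the wide spread of Apoe itself. The fold change rests on tunicamycin 1 and 3. The ratio of mean FPKM, tunicamycin over control, was 0.256 with all libraries and 0.00553 without tunicamycin 2. It was 0.379 without tunicamycin 1 and 0.385 without tunicamycin 3. On reads the log2 fold change was -1.42 in edgeR (unadjusted p = 0.268, adjusted p = 0.844) and -1.34 in DESeq2, which gave no p for Apoe. Housekeeping genes had such gaps too, as stated above, and the part of that uneven listing in the Apoe values was not tested. Apoe lies on chromosome 7, minus strand (chr7:19696109-19699188), with 11 annotated transcripts.

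Apob, the lipoprotein scaffold, lay the other way. It had 5.34, 5.05 and 13.4 FPKM in tunicamycin libraries 1, 2 and 3 and 0.0425, 1.84 and 0.232 FPKM in control libraries 1, 2 and 3. Every tunicamycin library was above every control. The means were 7.92 ± 4.73 FPKM after tunicamycin and 0.705 ± 0.988 FPKM in controls (SD, n = 3 each), a ratio of 11.2 that was 57.8 without control 2 and 7.37 without tunicamycin 3. The log2 fold change of 2.41 (SE 2.02) did not pass (limma adjusted p = 0.852). The Apob level was low in both groups: of the genes above 0, between 21.5% and 43.0% lay below it in the tunicamycin libraries and between 3.09% and 11.6% in the controls.

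Reads of Apob numbered 137, 126 and 181 in tunicamycin libraries 1, 2 and 3 and 1, 45 and 6 in control libraries 1, 2 and 3, summing to 444 and 52. The groups did not overlap in reads either. On these reads the log2 fold change was 2.99 in edgeR (adjusted p = 0.642) and 3.12 in DESeq2 (unadjusted p = 0.0443, adjusted p = 0.471). In tunicamycin 3 the implied length was 7371 nt, between those of annotated transcripts, against 13419 to 14018 nt in the other libraries. At 1 common length the means were 5.96 ± 1.13 FPKM after tunicamycin and 0.705 ± 0.988 FPKM in controls (SD, n = 3 each). Apob lies on chromosome 12, plus strand (chr12:7977648-8016835), and its longest transcript, Apob-202, has 29 exons and 13934 nt. Its promoter (RefSeq, GRCm38.p6, plus strand, chr12:7977427-7977726) is printed beside that of Alb because the 2 genes were the pair whose groups did not overlap in FPKM, in opposite directions.
Apob: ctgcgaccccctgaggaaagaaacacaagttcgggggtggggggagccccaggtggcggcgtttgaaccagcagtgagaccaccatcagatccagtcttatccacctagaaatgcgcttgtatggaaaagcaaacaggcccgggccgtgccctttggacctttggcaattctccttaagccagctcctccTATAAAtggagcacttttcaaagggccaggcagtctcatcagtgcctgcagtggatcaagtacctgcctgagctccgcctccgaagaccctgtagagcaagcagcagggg
It held 1 match to TATAAA (in capitals) and none to the HNF1, NF-Y and HNF4A motifs. The Alb run held the HNF1 and NF-Y motifs and no exact match to the TATA motif. Of the Rbp4 runs, not printed here, that of Rbp4-202 held 1 match to TATAAA only and that of Rbp4-204 held 1 to CCAAT only. The Rbp4 mean was lower after tunicamycin, as that of Alb was. A link between motif and direction was not tested. Variants of the motifs were not searched for, so a missing match does not show that a promoter lacks the element.

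Read over all 5 genes, none was called at a limma adjusted p under 0.05, against 5 of the 7696 genes tested (0.065%). Nor was any called by edgeR, against 0.039% of those genes, or by DESeq2, against 0.442%. In 2 of the 5 the FPKM groups did not overlap, Alb lower (as 2.72% of all genes tested) and Apob higher (as 3.03%), against 5.74% in either direction and 9.93% of the tested genes above 0 in all 6 libraries. With whole reads the groups did not overlap in 3 of the 5, Alb, Rbp4 and Apob, against 5.39% of the genes tested. At an unadjusted limma p under 0.05, Apoe alone of the 5 was called, against 3.09% of the genes tested, and that p does not use the spread of Apoe itself. The median log2 fold change of all genes tested was 0.10. Since the 5 genes were picked with these values known, the shares describe them and no more is read from them.

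The number of reads a gene took was also set against a feature of each library. Reads per gene clustered at a most frequent number, which was 39.9, 68.6 and 71.0 in tunicamycin libraries 1, 2 and 3 and 139, 46.5 and 53.8 in control libraries 1, 2 and 3. In units of that number Alb had 12.2, 4.75 and 6.32 in tunicamycin libraries 1, 2 and 3 and 5.49, 22.3 and 14.4 in control libraries 1, 2 and 3, so its groups overlapped on this scale. Hnf4a had 1.43, 1.92 and 0.986 after tunicamycin and 0.827, 3.98 and 1.15 in controls, close to the most frequent number in most libraries. Apob had 3.43, 1.84 and 2.55 after tunicamycin and 0.00719, 0.967 and 0.111 in controls, and its groups stayed apart. Rbp4 (1.51 to 3.37 after tunicamycin and 2.46 to 6.02 in controls) overlapped on this scale.

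**Figure D3:**
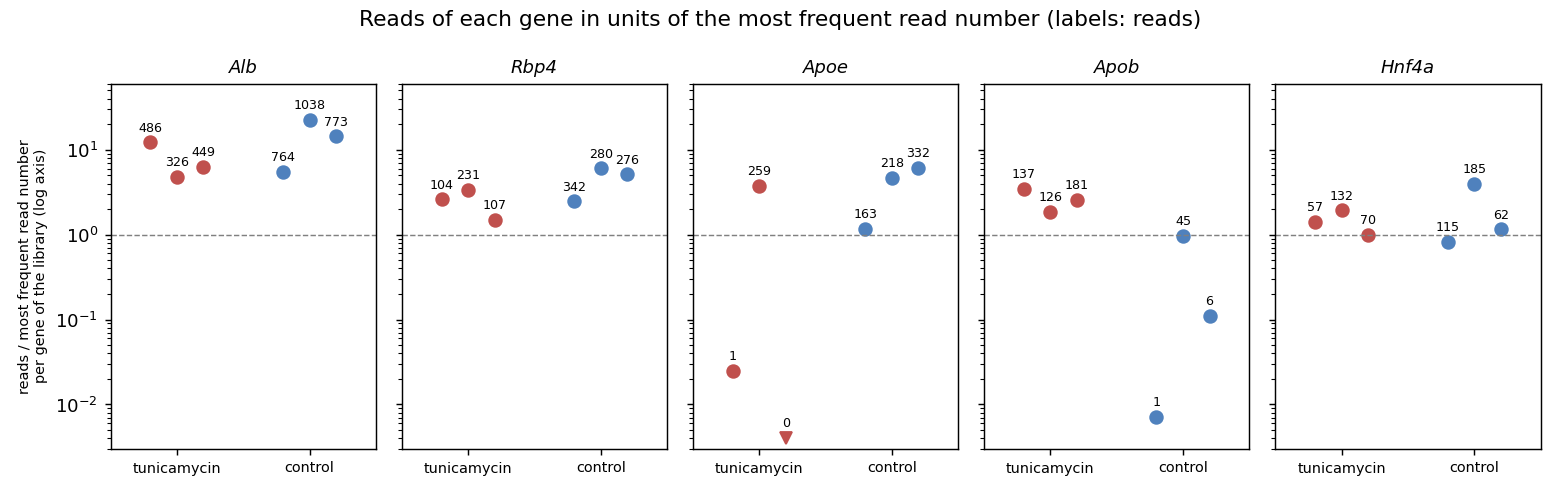
Reads of each hepatocyte gene divided by the most frequent read number per gene of the library (log axis, dashed line at 1), in tunicamycin libraries (left, red) and control libraries (right, blue), each point 1 library in the order of replicates, with the whole reads beside it. The triangle is Apoe in tunicamycin 3, with 0 reads. Apob alone keeps its groups apart on this scale, with all 3 tunicamycin libraries at 1.84 to 3.43.

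Actb lay at 1431, 1712 and 1722 FPKM in tunicamycin libraries 1, 2 and 3 and 1442, 1176 and 1935 FPKM in control libraries 1, 2 and 3, and did not pass the test (log2 fold change 0.12, limma adjusted p = 0.927). Alb, which exceeds actin transcripts many times over in normal liver, was at 9.29%, 5.63% and 7.38% of the Actb FPKM in tunicamycin libraries 1, 2 and 3 and at 16.00%, 25.5% and 10.99% in control libraries 1, 2 and 3. In every library it was thus below Actb, and the tunicamycin libraries were all below the controls. The log2 ratio to Actb was taken in the same library, with 1 added to the FPKM of both genes. Its mean for Alb was -3.77 ± 0.36 after tunicamycin and -2.59 ± 0.61 in controls (SD, n = 3 each). The difference was -1.17, with an exact 2-sided permutation p of 0.1, which is the smallest that 3 against 3 libraries allow.

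By group mean the other genes were further below Actb than Alb was, though not in every library. Rbp4 was at -4.22 ± 0.79 on the log2 scale after tunicamycin and -2.91 ± 0.43 in controls, a difference of -1.31 (exact permutation p = 0.2, n = 3 each). Hnf4a was at -7.16 ± 0.54 after tunicamycin and -5.28 ± 2.69 in controls, a difference of -1.88 (exact permutation p = 0.4, n = 3 each). That difference rests on the FPKM of control 1. At 1 common length per gene it was -0.30, and taken on reads -0.33 (exact permutation p = 0.6 for each). Apob was at -7.62 ± 0.64 after tunicamycin and -9.92 ± 1.06 in controls, a difference of 2.29 (exact permutation p = 0.1, n = 3 each). Its FPKM in controls was so low that the added 1 set much of its control level and of that difference. With 0.1 added the Apob difference was 3.88, and taken on reads it was 4.20 (exact permutation p = 0.1 for each). Apoe, with its library at 0, was at 0.120%, 6.90% and 0% of the Actb FPKM in tunicamycin libraries 1, 2 and 3 and at 6.92%, 10.8% and 12.4% in control libraries 1, 2 and 3. None of these 5 comparisons could have reached 0.05, so they add a size and a direction and no call. The implied length of Actb also moved, from library to library, over 1113 to 1473 nt after tunicamycin and 1431 to 1545 nt in controls, and taken on reads the Alb difference was -0.93 (exact permutation p = 0.1). The size of the Alb difference varied with the denominator. Against Eef1a1, a translation elongation factor, it was -0.50 (exact permutation p = 0.4). Eef1a1 was itself lower in FPKM in all 3 tunicamycin libraries (log2 fold change -0.55, limma adjusted p = 0.852). Its reads overlapped between the groups (edgeR log2 fold change -0.08). Against the geometric mean of the housekeeping genes above 0 in all 6 libraries, the Alb difference was -1.05 (exact permutation p = 0.1).

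The genes that work with these 5 were read from lists, with the 5 left out. Of the 48 other plasma protein genes, 1 was above 0 in all 6 libraries, Trf, the iron carrier transferrin. Trf had 219, 103 and 133 FPKM in tunicamycin libraries 1, 2 and 3 and 281, 110 and 309 FPKM in control libraries 1, 2 and 3, with overlapping groups (log2 fold change -0.55, limma adjusted p = 0.860). Next by mean level was Fgb, a fibrinogen chain, at 33.7, 41.3 and 43.2 FPKM after tunicamycin and 0, 33.2 and 76.1 in controls. Then came Cp, the copper carrier ceruloplasmin, at 3.30, 34.8 and 0 FPKM after tunicamycin and 0.387, 13.6 and 39.5 in controls, and Itih2, an inhibitor heavy chain, at 14.9, 23.6 and 26.8 FPKM after tunicamycin and 0, 18.7 and 6.48 in controls. Of the 6 genes of that list that could be tested, the log2 fold change was above 0 in 3 and below 0 in 3 (median 0.17), and none passed.

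Among 17 other apolipoprotein genes, 14 were at 0 in all 6 libraries, Apoa1 and Apoc3 included. Clu, the apolipoprotein also called clusterin, which many cell types make, had 75.6, 20.9 and 109 FPKM after tunicamycin and 0, 81.01 and 258 FPKM in controls. Apoa2, of high-density lipoproteins, was above 0 in control 3 alone (102 FPKM), and Apoc2, the cofactor of lipoprotein lipase, in tunicamycin 1 alone (22.6 FPKM). No apolipoprotein gene of the list passed the test (3 tested, 2 higher, 1 lower, median log2 fold change 1.04).

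For the machinery that loads, secretes and takes up lipoproteins, of 31 genes 6 were above 0 in every library and 10 in none. Of 18 tested, 12 were higher and 6 lower (median log2 fold change 0.81), and none passed. P4hb, the protein disulfide isomerase that is also a subunit of the lipid transfer protein which loads Apob, had 371, 123 and 539 FPKM after tunicamycin and 50.9, 189 and 169 FPKM in controls. The P4hb groups overlapped in FPKM (log2 fold change 1.30, limma adjusted p = 0.852). They did not overlap in reads, at 494, 598 and 860 after tunicamycin and 243, 400 and 457 in controls (edgeR adjusted p = 0.642). Such separation in reads was seen in 5.39% of the genes tested. Lrp1, a receptor for Apoe-bearing remnants, had 176, 237 and 119 FPKM after tunicamycin and 52.7, 34.1 and 45.3 FPKM in controls. The Lrp1 groups did not overlap in FPKM but did in reads, at 1149, 592 and 1609 after tunicamycin and 1381, 930 and 1147 in controls, and its log2 fold change of 1.95 did not pass (limma adjusted p = 0.852).

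The retinoid list, which holds the partners of Rbp4, was at 0 in all 6 libraries for 16 of 28 genes. Stra6, the membrane receptor for Rbp4, which normal hepatocytes hardly express, was its most abundant gene, at 117, 84.4 and 71.3 FPKM after tunicamycin and 66.0, 74.8 and 170.5 FPKM in controls (log2 fold change -0.09, limma adjusted p = 0.999). Ttr, which carries Rbp4 in plasma, was at 0 in all 6 libraries. Of the 11 retinoid genes tested, 5 were higher and 6 lower (median log2 fold change -0.09), and none passed.

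Of 25 hepatocyte transcription factors other than Hnf4a, 11 were at 0 in all 6 libraries, against 13826 of all 22564 genes. Only 2 were above 0 in all 6: Tbx3, at 59.8, 43.7 and 36.4 FPKM after tunicamycin and 49.4, 86.8 and 54.0 FPKM in controls, and Atf5, a stress-responsive factor, at 13.2, 55.2 and 39.0 FPKM after tunicamycin and 0.724, 23.9 and 49.8 FPKM in controls. Foxa2, a pioneer factor, was above 0 in 3 libraries, at 0.731 and 72.9 FPKM in tunicamycin 1 and 2 and 45.4 FPKM in control 3. Of 13 factors tested, 3 were higher and 10 lower (median log2 fold change -0.42), and none passed.

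**Figure D4:**
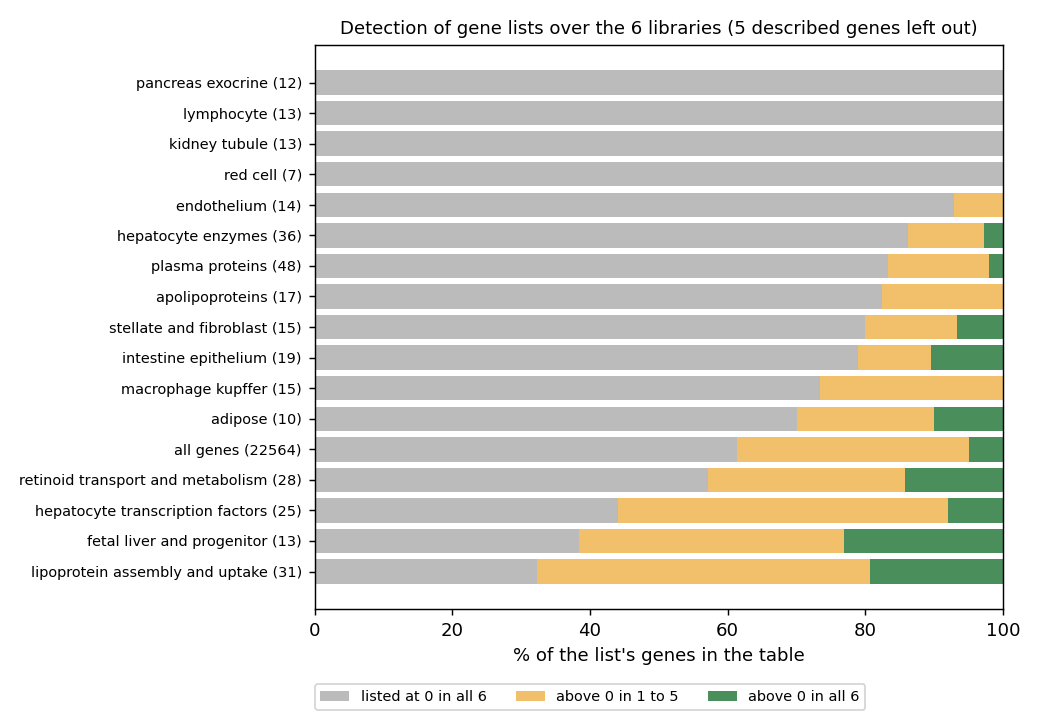
Share of each gene list (percent of its genes in the table, number in brackets) that was listed at 0 in all 6 libraries (grey), above 0 in 1 to 5 (yellow) or above 0 in all 6 (green), with the 5 hepatocyte genes left out. Plasma proteins, apolipoproteins and hepatocyte enzymes have larger grey shares than all genes, and lipoprotein assembly and hepatocyte transcription factors smaller ones.

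Of the 36 hepatocyte enzyme genes, the single one above 0 in all 6 libraries was Glul, the glutamine synthetase of pericentral hepatocytes and of many other cells, at 189, 145 and 211 FPKM after tunicamycin and 172, 113 and 128 FPKM in controls (log2 fold change 0.40, limma adjusted p = 0.926). Of 13 fetal liver and progenitor genes, 5 were at 0 in all 6 libraries. Afp, the fetal counterpart of albumin, had 108, 143 and 180 FPKM in tunicamycin libraries 1, 2 and 3 and 114, 39.3 and 136 FPKM in control libraries 1, 2 and 3 (log2 fold change 0.72, SE 0.96, limma adjusted p = 0.852). Afp is all but silent in normal adult liver, and its groups here overlapped. The epithelial keratin Krt19 had 64.2, 78.5 and 174 FPKM after tunicamycin and 6.46, 35.6 and 81.2 FPKM in controls, and Krt7 had 55.6, 5.05 and 19.2 FPKM after tunicamycin and 169.8, 151 and 33.1 FPKM in controls (limma adjusted p = 0.852 for both).

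In the lists of other cells that a sample could hold, 70.0% (adipose) to 100% of the genes were at 0 in all 6 libraries. That share was 83.3% for plasma proteins, 86.1% for hepatocyte enzymes and 61.3% for all genes. For intestinal epithelium, 15 of 19 identifiers were at 0 in all 6 libraries, and the summed level of the list was 62.5 to 259 FPKM after tunicamycin and 87.1 to 181 FPKM in controls. Its members above 0 in all 6 were Cdh17, an intestinal cadherin, at 45.7, 124 and 42.8 FPKM after tunicamycin and 43.2, 8.15 and 50.1 FPKM in controls, and Vil1, the microvillus protein villin, at 88.7, 64.2 and 13.4 FPKM after tunicamycin and 32.4, 30.2 and 58.2 FPKM in controls. Krt20, a keratin of differentiated gut epithelium that is named outside the rule, after its values were seen, had 0, 0 and 6.34 FPKM after tunicamycin and 70.2, 33.6 and 13.5 FPKM in controls, without overlap, and did not pass (log2 fold change -4.08, limma adjusted p = 0.852). Lgr5, a marker of intestinal stem cells, had 37.4, 70.5 and 0 FPKM after tunicamycin and 35.2, 15.1 and 12.3 FPKM in controls, with overlapping groups. Gut epithelium also expresses Apob and Hnf4a, and the part of such cells in their values was not tested. The macrophage list, whose cells also make Apoe, was at 0 in all 6 libraries for 11 of 15 genes and summed to 0.133 to 48.0 FPKM after tunicamycin and 0 to 9.15 FPKM in controls. Of 14 endothelial markers 13 and of 15 stellate cell and fibroblast markers 12 were at 0 in all 6. In the stellate cell and fibroblast list Ecm1 had 37.2, 99.6 and 168 FPKM after tunicamycin and 39.4, 111 and 53.3 FPKM in controls. Dcn had 47.9, 0.341 and 38.8 FPKM after tunicamycin and 49.2, 0 and 9.92 FPKM in controls.

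Among 1088 genes above 0 in all 6 libraries with a mean of at least 5 FPKM, those whose pattern was most like each hepatocyte gene were found by the root mean square difference of centred log2(FPKM + 1) values over the 6 libraries. For Alb the nearest were Parp1, a DNA repair enzyme, at 0.109, Gnb2l1, a ribosomal scaffold, at 0.221 and Cds2, a phospholipid enzyme, at 0.269. Parp1 had 24.4, 15.6 and 21.9 FPKM after tunicamycin and 40.0, 45.3 and 40.3 FPKM in controls. For Rbp4 the nearest were Itgb1, an integrin, at 0.131, Ptbp1, an RNA-binding protein, at 0.314 and Junb, an AP-1 factor, at 0.343. The nearest genes were further off for Apob (Matr3 at 0.639, Rpsa-ps10 at 0.662) and Hnf4a (Smc2 at 0.697, Crebbp at 0.710, Zbtb20 at 0.733). They were furthest for Apoe (Mt2 at 1.22, Clstn3 at 1.28, Plagl2 at 1.64).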

How the data were processed

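RNA was measured in 6 libraries labelled as mouse liver, 3 tunicamycin and 3 control, grouped by their labels. Per the labels' protocols, ribosomal RNA was removed from total RNA and stranded libraries were made. Of tools, the submitters' processing notes list HISAT2 2.0.4, cutadapt 1.9.3, CASAVA 1.8, Cuffdiff and Cufflinks, with the build mm10. No source used here gives a version of Cufflinks. Per gene and library the authors deposited FPKM and an estimated count. In each library 97.2% to 98.0% of the deposited counts above 0 were whole multiples of 1 step (tolerance 0.01), and each count was divided by it and rounded to whole reads. A line of the table without values was not analysed here.

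The test was limma 3.58.1 (R 4.3.3) on log2(FPKM + 1) with a variance trend, over the 7696 genes with a mean of at least 1 FPKM, with Benjamini-Hochberg adjustment and a threshold of 0.05, 2-sided; it was tested on simulated data. Its variance prior had infinite degrees of freedom, so each SE came from genes of like level and not from the gene's own spread. edgeR 4.0.16 (quasi-likelihood, TMM) and DESeq2 1.42.0 (poscounts) ran on the whole reads. Each gene was set against Actb in the same library with an exact 2-sided permutation test over libraries.

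Transcript lengths were taken back from the ratio of deposited count to FPKM, calibrated in each library on genes with 1 transcript in GENCODE M21 (GRCm38),. Promoters are RefSeq's, GRCm38.p6. Named genes were the 5 hepatocyte genes, Actb and Eef1a1, up to 6 genes of highest mean FPKM in each list of hepatocyte genes, up to 3 in each list of other cells, and the 3 nearest patterns, of which 1 is not reported here. The 5 genes and the lists were chosen with earlier results of these data known. Alternatives covered pseudocount, filter, scaling, variance trend, tool, denominator, a replicate block and each library left out; 1 transcript length per gene was added after seeing the data. At these depths a count of 0 allows 0.000454% to 0.000555% of a library (3 reads), which covers counting error only. That bound takes reads as independent, whereas reads per gene clustered at a most frequent number, so it can be too tight.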

Additional observations from a re-analysis of the deposited data

How the results depend on the processing

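The log2 fold changes of the 5 genes and their log2 ratios to Actb kept their direction in all 144 values that the alternatives gave, and no fold change passed. No test of a ratio to Actb could pass with so few libraries. Log2 fold changes, tunicamycin minus control, ranged over -1.16 to -0.76 for Alb, -1.68 to -0.80 for Rbp4, -6.47 to -1.34 for Apoe, 0.72 to 4.002 for Apob and -2.84 to -0.18 for Hnf4a, with adjusted p between 0.471 and 1.00. Apob was removed by a filter at a mean of 5 FPKM, and DESeq2 gave no adjusted p for Apoe.

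Genes called numbered 5 with all libraries (4 higher, 1 lower). They numbered 34 by DESeq2 (16 higher, 18 lower), 3 by edgeR (3 higher), 2 at a mean of at least 5 FPKM, 2 at a pseudocount of 10, 2 with 1 transcript length per gene, 1 with that length and scaling to the most frequent read number, and 0 without a variance trend or without a filter. With 1 library left out they numbered 0 to 0. The cause was not tested, except that a left-out library leaves fewer samples. Leaving out control 1 moved the median log2 fold change of all genes by -0.27, control 2 by 0.18 and control 3 by 0.22.

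The replicate block gave 0 genes called and an adjusted p of 0.886 for each of the 5 genes. Libraries of the same number did not deviate together (correlations across genes of -0.01, -0.01 and 0.00), so the numbers only name them.

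The ratio of means moved by over 1.5 times without tunicamycin 2 for Rbp4 and Apoe, tunicamycin 3 for Apob, control 2 for Apob and control 1 for Hnf4a. Apob in controls (1, 45 and 6 reads) and Apoe after tunicamycin (1, 259 and 0 reads) rest on few reads in some libraries. The cause of those low numbers was not tested.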

Other observations

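The ratio of Alb to Afp, chosen after its values were seen, sets albumin against its fetal counterpart in the same library and needs no scaling between libraries. On the FPKM scale it was 1.23, 0.675 and 0.707 in tunicamycin libraries 1, 2 and 3 and 2.02, 7.64 and 1.57 in control libraries 1, 2 and 3. The tunicamycin libraries were all below the controls, and control 2, which had the most Alb and the least Afp of the 6, stood highest. No test is given for a ratio picked in this way.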
